A study of Mus musculus with 12 samples.

Results

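The genes of potassium channels and of voltage-gated calcium channels were followed in colon and urinary bladder of mice with and without an induced smooth muscle knockout of YAP (*Yap1*) and TAZ (*Wwtr1*). The members were all genes whose symbol begins with *Kcn* followed by letters and a number, together with the *Cacn* genes of the pore, alpha2delta, and beta subunits. This gave 116 genes of 54532 in the tables, 98 *Kcn* and 18 *Cacn* genes, of which 5 are antisense or long noncoding transcripts that carry a channel's name. Colon and bladder were taken from male mice aged 5 to 7 weeks on day 7 after the first of 5 injections of tamoxifen at 1 mg per mouse per day. Y/T KO mice carried floxed *Yap1* and *Wwtr1* alleles and were positive for Myh11CreERT2, a tamoxifen-inducible Cre under the smooth muscle myosin promoter. Ctrl mice carried the same floxed alleles without the Cre and also received tamoxifen, so that both genotypes share the alleles and the drug. Each of the 4 groups had 3 libraries, each from a single mouse, and 3 of the 9 mice (788, 783, and 780) gave both tissues. The floxed line has a mixed background, and whole distal colon and whole bladder were sequenced, so smooth muscle was read together with epithelium, nerve, and other cells.

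Contraction of visceral smooth muscle is set by calcium entry through voltage-gated calcium channels, which are built from a pore subunit, an alpha2delta subunit, and a beta subunit. Potassium channels oppose it by pulling the membrane potential down, and they include calcium-activated BK and SK channels, voltage-gated Kv channels, inward rectifiers, and K2P leak channels. Silent Kv subunits form no channel by themselves and change the properties of Kv2 channels. In epithelia, other potassium channels drive the secretion of chloride and water.

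Promoters are shown for the 3 members with the largest differences between genotypes in bladder among those whose libraries did not overlap, *Kcnf1* and *Kcng4*, whose levels were lower in every Y/T KO library of both tissues, and *Kcnc1*, the only member called in a knockout comparison. Each line gives the 250 bases before the transcription start, 5′ to 3′ on the strand of the gene, from RefSeq (GRCm38.p6).
*Kcnf1* (chr12:17176889-17177138, minus strand): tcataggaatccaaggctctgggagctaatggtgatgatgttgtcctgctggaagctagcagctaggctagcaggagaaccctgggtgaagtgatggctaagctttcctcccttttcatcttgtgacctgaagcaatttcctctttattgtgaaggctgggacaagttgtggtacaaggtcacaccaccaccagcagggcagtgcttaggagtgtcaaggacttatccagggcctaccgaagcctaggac
*Kcng4* (chr8:119635681-119635930, minus strand): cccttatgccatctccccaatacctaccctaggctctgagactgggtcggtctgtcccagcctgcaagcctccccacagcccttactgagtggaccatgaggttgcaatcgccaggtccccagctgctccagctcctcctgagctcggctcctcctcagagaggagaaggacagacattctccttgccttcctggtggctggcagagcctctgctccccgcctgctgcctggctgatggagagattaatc
*Kcnc1* (chr7:46396218-46396467, plus strand): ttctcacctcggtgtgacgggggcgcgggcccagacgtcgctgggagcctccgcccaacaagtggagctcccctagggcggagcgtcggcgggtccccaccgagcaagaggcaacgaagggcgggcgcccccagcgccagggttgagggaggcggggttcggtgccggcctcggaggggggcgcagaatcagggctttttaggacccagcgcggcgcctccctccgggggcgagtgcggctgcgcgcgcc
They are shown in lower case because neither of 2 motifs searched on both strands is found in these windows, namely GGAATG, the site of the TEAD factors through which YAP and TAZ act, and the CArG box of serum response factor. The windows differ in base composition, with 51.2% G and C for *Kcnf1*, 60.4% for *Kcng4*, and 74.4% for *Kcnc1*, against a median of 52.4% over 32851 promoters. Among the 115 promoters listed for 82 members, 17 (14.8%) hold GGAATG on either strand, against 12.6% of all promoters, and 0 hold a CArG box, against 1.47% of all promoters. *Kcnk1*, *Kcnk2*, *Kcnk13*, *Kcnn4*, *Kcns1*, and *Kcna5* are among the members with the first motif.

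Levels are given as TPM, each gene's share of all transcripts as estimated and deposited by the authors, which correct for transcript length and can be compared between genes. The libraries held 2.80 to 3.94 gigabases of aligned sequence, with similar ranges in the 4 groups. *Yap1* was at 101, 98.6, and 110 TPM for Ctrl bladder and at 71.3, 69.4, and 72.1 TPM for Y/T KO bladder, and at 54.9, 52.8, and 45.8 TPM against 44.0, 41.3, and 47.0 TPM in colon. The genotypes did not overlap for *Yap1* in bladder (log2 fold change -0.54 ± 0.08 SE, adjusted p = 0.0625) and overlapped in colon. *Wwtr1* overlapped in both tissues, at 32.5 to 61.6 TPM for Ctrl and 48.3 to 60.9 TPM for Y/T KO bladder, and at 16.9 to 21.5 against 17.9 to 22.7 TPM in colon. By Western blot the study reported both YAP and TAZ protein as lower in Y/T KO colon, which RNA of whole tissue does not measure. Defining markers fitted the labelled tissues, since 6 urothelial markers summed to 5410 to 5925 TPM for Ctrl bladder and to 31.8 to 40.1 TPM for Ctrl colon, and 7 colonic epithelial markers to 7015 to 8738 TPM for Ctrl colon and to 875 to 932 TPM for Ctrl bladder. The sum of 10 smooth muscle markers was 7600 to 8324 TPM for Ctrl and 4974 to 5849 TPM for Y/T KO colon, and 35480 to 46190 TPM for Ctrl and 17000 to 31130 TPM for Y/T KO bladder. All 10 of these markers had a lower mean in Y/T KO in both tissues and 0 of 10 passed an adjusted p of 0.05. Their part in the differences given below was not tested, and in bulk tissue fewer cells of a type and less RNA per cell cannot be told apart.

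Of the 116 members, 5 were listed at 0 in all 12 libraries (*Kcnj1*, *Kcnk12*, *Kcnk15*, *Kcnmb3*, and *Kcnmb4os1*), 20 were above 0 but under 0.5 TPM in every library, and 91 reached 0.5 TPM in at least 1 library. On average 15 members reached 5 TPM in Ctrl colon and 31 in Ctrl bladder. A gene was tested if 3 or more of the 6 libraries compared held 0.5 TPM or more, which let through 54 members for the knockout in colon, 70 in bladder, and 72 for the control tissues. In both knockout comparisons 45 members were tested and 37 in neither.

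The control tissues differed in most of the channel genes tested. Ctrl colon was set against Ctrl bladder to see which channels each tissue uses, and 55 of 72 members tested passed an adjusted p of 0.05, 14 higher in colon and 41 higher in bladder. Over all genes tested the same test called 25.4% higher in colon and 25.3% higher in bladder, against 19.4% and 56.9% of the members. The median log2 difference, colon minus bladder, was -1.36 over the members and 0.03 over all genes. With TPM left as deposited the median of all genes was -0.23 and that of the members -1.59, with 11 members higher in colon and 46 higher in bladder, and the share of all called genes that were higher in colon was 35.8% in place of 50.2%. A set of 21 members was tested only because 1 of the tissues was above the limit, so these had to differ. Mouse 788 gave a library to each side of this comparison.

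Subunits known from epithelial secretion led the colon. *Kcne3*, the accessory subunit that keeps the Kv7 channel of *Kcnq1* open in crypt cells, had the highest level of all members, at 259, 185, and 228 TPM for Ctrl colon and 2.28, 2.87, and 3.13 TPM for Ctrl bladder (log2 difference 6.55 ± 0.19 SE, adjusted p = 8.4e-07). Its partner *Kcnq1* was at 45.6, 40.5, and 47.1 TPM for Ctrl colon and at 2.86, 0.945, and 1.63 TPM for Ctrl bladder (4.92 ± 0.37, adjusted p = 5.68e-05). The tissues lay far apart for both genes, and *Kcnq1* overlaps the noncoding gene *Kcnq1ot1*, which was under 0.5 TPM in every library. *Kcnk5*, a K2P leak channel, was at 49.4, 55.0, and 52.2 TPM for Ctrl colon and at 5.92, 6.61, and 6.35 TPM for Ctrl bladder (3.29 ± 0.12, adjusted p = 2.11e-06). *Cacna2d2*, an alpha2delta subunit, was at 3.35 to 3.67 TPM against 0.143 to 0.701 TPM (3.51 ± 0.50), and *Kcnh6*, an ERG-type pore subunit, at 1.18 to 1.61 TPM against 0 to 0.333 TPM (3.35 ± 0.61). Both were called as higher in colon, but *Kcnh6* was tested through colon alone and had to differ. *Kcnn4*, the intermediate-conductance calcium-activated channel of epithelia and leukocytes, was called too although the tissues overlapped on the deposited scale, at 34.7, 23.3, and 33.0 TPM for Ctrl colon and 18.02, 24.0, and 19.1 TPM for Ctrl bladder.

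Of 20 members known from smooth muscle, 19 were tested, of which 14 were called as higher in bladder, 0 as higher in colon, and 5 were not called (*Cacna1d*, *Cacna1g*, *Cacnb3*, *Kcna5*, and *Kcnj8*). Among the 14 called, *Kcnq5* was tested through bladder alone and had to differ. The BK pore *Kcnma1* was at 4.47, 12.8, and 6.35 TPM for Ctrl colon and 27.2, 25.4, and 23.3 TPM for Ctrl bladder (-1.55 ± 0.33, adjusted p = 0.00675), and its smooth muscle beta subunit *Kcnmb1* at 11.1, 14.1, and 11.5 TPM against 40.1, 47.3, and 44.2 TPM (-1.58 ± 0.12, adjusted p = 6.42e-05). The L-type pore *Cacna1c*, through which most calcium enters visceral smooth muscle, was at 4.28, 5.35, and 3.32 TPM for Ctrl colon and 20.4, 24.0, and 26.4 TPM for Ctrl bladder (-2.18 ± 0.18, adjusted p = 9.18e-05). Among the beta subunits *Cacnb2* was called (2.42 to 3.22 against 20.3 to 22.6 TPM) and *Cacnb3* was not (25.8 to 38.8 against 50.9 to 58.0 TPM, adjusted p = 0.087). The summed smooth muscle markers differed in the same direction, with 10 of 10 called as higher in bladder, and their part in these differences was not tested. Every Kv1 to Kv4 pore subunit tested (11) had its lowest Ctrl bladder library above its highest Ctrl colon library, and 9 of the 11 were called, but 4 of them were tested through bladder alone and had to differ, which leaves 5 of 7. Of all 72 members tested, 48 (66.7%) lay apart in this direction. The share over all genes is not given here, so the count of 11 shows nothing particular to these subunits.

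The largest differences toward bladder were in *Kcne1*, a partner of Kv7 channels (0.0378 to 0.0648 TPM for Ctrl colon, 6.39 to 8.79 TPM for Ctrl bladder, log2 difference -5.47 ± 0.28), and *Kcnj15*, an inward rectifier (0 to 0.154 against 2.47 to 9.27 TPM, -4.86 ± 0.60). *Kcng1*, a silent Kv subunit, was at 0.249 to 0.547 TPM against 8.31 to 18.5 TPM (-4.67 ± 0.39). *Kcnk2*, a stretch-sensitive K2P channel, was at 0.368 to 0.585 TPM against 9.40 to 13.8 TPM (-4.22 ± 0.25), and *Kcnmb4*, a BK beta subunit, at 0.136 to 0.254 TPM against 3.59 to 5.45 TPM (-3.69 ± 0.31). All 5 were called, and their tissues did not overlap in any library, but *Kcne1*, *Kcnj15*, and *Kcnmb4* were tested through bladder alone and had to differ. *Kcnmb4* shares its locus with the antisense genes *Kcnmb4os1* and *Kcnmb4os2*, and how strand was used in the authors' estimate is not given in the sources used here.

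Other tissues' markers also moved with this comparison. Skeletal muscle markers (8) summed to 18.1 to 29.8 TPM for Ctrl colon and 1365 to 1995 TPM for Ctrl bladder, with *Myh1* and *Myh4* at 0 in all Ctrl colon libraries, and pancreatic acinar markers (7) to 7.25 to 134 TPM for Ctrl colon and at most 0.092 TPM for Ctrl bladder. Their part in the channel differences was not tested. *Kcnmb4os2*, the highest of the antisense and noncoding members, was listed at 0 in all Ctrl colon libraries and at 1.00, 0.687, and 2.19 TPM in Ctrl bladder.

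**Figure D1:**
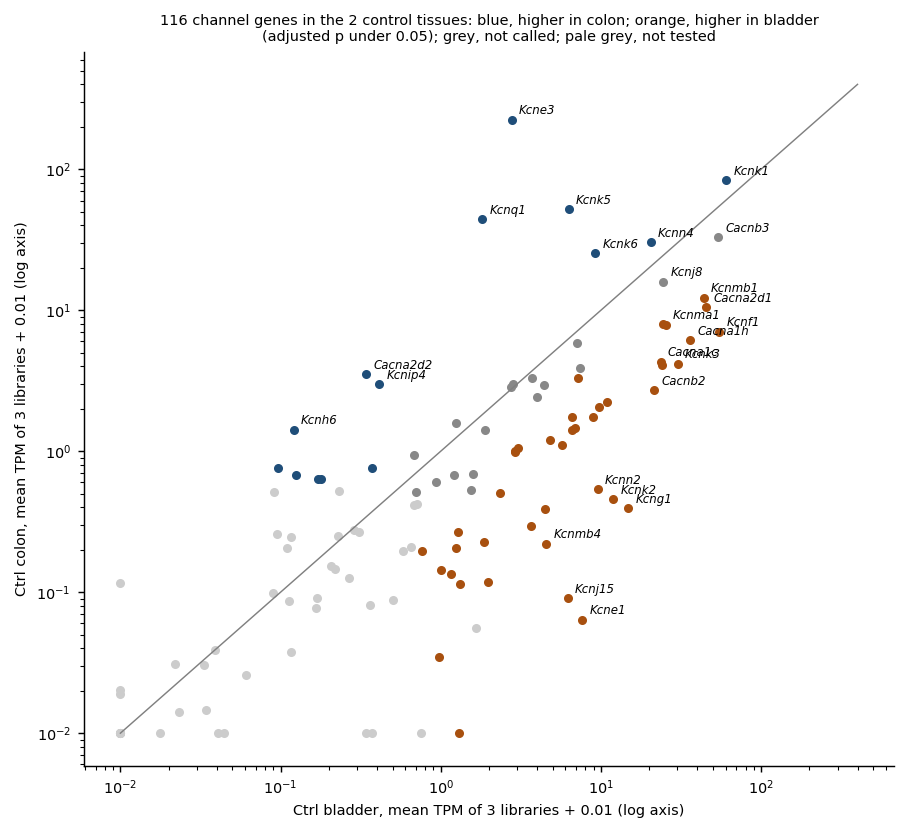
Mean TPM of each of the 116 members in 3 Ctrl bladder libraries (horizontal) and 3 Ctrl colon libraries (vertical), on log axes after adding 0.01; the line marks equal levels. *Kcne3*, *Kcnq1*, *Kcnk5*, and *Cacna2d2* lie far above the line and *Kcne1*, *Kcnj15*, *Kcng1*, and *Kcnk2* far below it, with 41 called members on the bladder side and 14 on the colon side.

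The knockout was then compared with Ctrl within each tissue. In bladder, 1 of 70 members tested was called at an adjusted p of 0.05, against 0.302% of all 18237 genes tested. That member passed the limit for testing through Y/T KO alone and so had to differ. The median log2 fold change of the members, Y/T KO over Ctrl, was 0.07, and that of all genes was 0.00. At an unadjusted p of 0.05 there were 14 members (20.0%), 10 lower and 4 higher, where all genes gave 14.8%. The 3 Y/T KO libraries lay below the 3 Ctrl libraries for 11 members (15.7%, all genes 10.0%) and above them for 7 (10.0%, all genes 10.4%). The 7 include *Kcnc1*, which had to lie apart because of the limit for testing.

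*Kcnc1* was the member called in bladder. It encodes a Kv3 pore subunit, a fast channel known from neurons that fire at high rates, and lies on chromosome 7 (46396497 to 46438704, plus strand). Ctrl bladder held 0.307, 0.111, and 0.170 TPM and Y/T KO bladder 5.07, 2.87, and 2.75 TPM, so the genotypes were well apart (log2 fold change 3.63 ± 0.41 SE on the scale of log2(TPM + 0.1), adjusted p = 0.0308). *Kcnc1* was tested in bladder only because Y/T KO libraries exceeded 0.5 TPM, so the genotypes had to differ. Its adjusted p was 0.00779 to 0.0380 under the other settings with all libraries and lay above 0.05 when any of 5 of the 6 libraries was left out, at 0.0717 to 0.147 without Ctrl 785, Ctrl 788, or Y/T KO 782, 783, or 780, where the log2 fold change was 3.37 to 3.90. With a pseudocount of 0.5 or 1 TPM in place of 0.1 it was 2.51 or 1.90. In colon *Kcnc1* was at 0.0342 to 0.213 TPM in all 6 libraries. The 12 neuronal markers summed to 374 to 638 TPM for Ctrl bladder and 553 to 673 TPM for Y/T KO bladder and overlapped, with 10 of 11 tested positive and 0 called, and their part in the *Kcnc1* difference was not tested. The nearest protein-coding gene before *Kcnc1*, chosen after its values were seen, is *Myod1*, a muscle transcription factor whose last base lies 17.4 kb from the start of *Kcnc1*, and it was listed at 0 in the Ctrl bladder libraries and at 0.174, 1.29, and 0.422 TPM for Y/T KO.

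The 2 members with the largest differences toward lower levels were silent Kv subunits. *Kcnf1* was at 34.8, 87.8, and 41.5 TPM for Ctrl bladder and at 7.25, 2.74, and 5.84 TPM for Y/T KO bladder. The lowest Ctrl library was above the highest Y/T KO library by a wide margin (log2 fold change -3.34 ± 0.45, adjusted p = 0.062). With all 12 libraries in a single fit its adjusted p was 0.0197, and with the mouse as a replicate block, which pairs the tissues of 3 mice, it was 0.020 (log2 fold change -3.33), so the count of members called became 2 of 70. *Kcng4* was at 5.58, 5.95, and 9.13 TPM for Ctrl and 3.61, 2.33, and 1.93 TPM for Y/T KO bladder, again without overlap (-1.37 ± 0.29, adjusted p = 0.141). *Kcng1*, the other abundant silent subunit of bladder, overlapped (8.31 to 18.5 against 17.7 to 28.7 TPM), and *Kcng3* was higher in each Y/T KO library (0.719 to 1.33 against 1.38 to 2.03 TPM, 0.71 ± 0.36, adjusted p = 0.402). The 10 silent subunits summed to 65.9 to 107 TPM for Ctrl bladder and 30.2 to 46.9 TPM for Y/T KO bladder. Without *Kcnf1* the other 9 summed to 19.0 to 34.0 TPM and 26.4 to 39.7 TPM and overlapped, and 4 of 6 silent subunits tested were positive, with a median log2 fold change of 0.04.

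Of the calcium-activated SK and IK channels, 4 of 4 tested had a negative log2 fold change in bladder, 3 without overlap, and 0 were called. *Kcnn2*, an SK channel, was at 8.22, 12.5, and 7.90 TPM for Ctrl and at 6.81, 3.71, and 4.38 TPM for Y/T KO (-0.94 ± 0.28, adjusted p = 0.216). *Kcnn3*, the SK channel of interstitial PDGFRA cells and endothelium, was at 10.02, 11.1, and 8.01 TPM and at 3.96, 7.10, and 3.58 TPM (-1.03 ± 0.31, adjusted p = 0.224), and *Kcnn4* at 18.02, 24.0, and 19.1 TPM and at 14.0, 9.67, and 15.2 TPM (-0.67 ± 0.19, adjusted p = 0.213). These 3 members did not overlap between genotypes, whereas *Kcnn1* did, and the 4 together summed to 37.1 to 48.0 TPM for Ctrl and 20.6 to 26.97 TPM for Y/T KO bladder. Markers of PDGFRA cells overlapped between the genotypes (84.9 to 110 against 98.5 to 117 TPM). Endothelial markers summed to 151.5 to 173.2 TPM for Ctrl and 174.7 to 194.2 TPM for Y/T KO bladder, with 3 of 4 positive and 0 called. The part of either list in the *Kcnn3* difference was not tested. Leukocyte markers (4 of 4 negative, 88.1 to 179 against 69.8 to 122 TPM) and urothelial markers (6 of 6 negative, 5410 to 5925 against 4449 to 5719 TPM) had the same sign as *Kcnn4*, with 0 called, and their part in its difference was not tested. Among the BK subunits, *Kcnma1* was higher in each Y/T KO library and was not called. It was at 27.2, 25.4, and 23.3 TPM for Ctrl and 30.1, 46.0, and 31.5 TPM for Y/T KO bladder (0.47 ± 0.21, adjusted p = 0.348) and *Kcnmb1* overlapped, at 40.1 to 47.3 against 30.4 to 49.4 TPM (-0.19 ± 0.17, adjusted p = 0.651). *Kcnmb1* lies within *Kcnip1* on the opposite strand, so reads of the pair may not be told apart.

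Among the calcium channels of bladder, 3 pore subunits lay lower and 1 alpha2delta subunit higher in every Y/T KO library. *Cacna1g*, a T-type pore that opens near the resting potential, was at 5.13, 4.21, and 3.83 TPM for Ctrl and at 1.95, 1.76, and 2.06 TPM for Y/T KO (-1.15 ± 0.22, adjusted p = 0.114). *Cacna1d*, an L-type pore that opens at lower voltage than *Cacna1c*, was at 3.97, 3.91, and 4.10 TPM against 2.47, 1.496, and 2.85 TPM (-0.83 ± 0.26, adjusted p = 0.235), and *Cacna1c* at 20.4, 24.0, and 26.4 TPM against 18.2, 18.7, and 17.6 TPM (-0.37 ± 0.12, adjusted p = 0.237). The libraries of the genotypes did not overlap for these 3 pores, though none passed the adjusted threshold. *Cacna1h*, the more abundant T-type pore, overlapped (29.0 to 45.2 against 16.9 to 37.4 TPM), as did the beta subunits *Cacnb2* (20.3 to 22.6 against 17.0 to 24.4 TPM) and *Cacnb3* (50.9 to 58.0 against 41.4 to 54.8 TPM) and the main alpha2delta subunit *Cacna2d1* (41.3 to 48.5 against 46.9 to 57.1 TPM). *Cacna2d3*, a neuronal alpha2delta subunit, was at 4.81, 5.23, and 4.29 TPM for Ctrl and 10.01, 7.75, and 8.38 TPM for Y/T KO (0.85 ± 0.17, adjusted p = 0.119), without overlap.

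The Kv7 pores had positive log2 fold changes in bladder in 5 of 5 tested. *Kcnq5*, a Kv7 channel of smooth muscle and nerve, was at 3.91, 5.46, and 3.96 TPM for Ctrl and 8.43, 6.77, and 8.30 TPM for Y/T KO, with no overlap (0.82 ± 0.19, adjusted p = 0.162). *Kcnj12*, an inward rectifier, was higher in each Y/T KO library (2.31 to 4.78 against 5.13 to 5.54 TPM, 0.59 ± 0.29, adjusted p = 0.392), and the KATP pore *Kcnj8* overlapped (21.3 to 27.3 against 18.8 to 30.4 TPM). The K2P channels *Kcnk1* (50.0 to 73.6 against 62.1 to 84.7 TPM), *Kcnk2* (9.40 to 13.8 against 10.99 to 15.0 TPM), and *Kcnk3* (23.4 to 40.8 against 27.8 to 34.3 TPM) all overlapped, as did the ERG pore *Kcnh2* (17.7 to 27.9 against 20.4 to 26.2 TPM), *Kcna5* (0.935 to 2.13 against 1.39 to 2.38 TPM), *Kcnd3* (6.31 to 8.72 against 5.41 to 13.6 TPM), and *Kcnt1* (0.676 to 1.55 against 0.805 to 3.45 TPM). The other tested members without overlap, named after their values were seen, were *Kcne4*, an accessory subunit that inhibits Kv1 and Kv7 channels (19.0 to 35.4 against 12.5 to 15.4 TPM), *Kcnk13*, a K2P channel (2.10 to 3.94 against 1.32 to 1.85 TPM), and *Kcnk5* (5.92 to 6.61 against 4.59 to 5.53 TPM) on the lower side, and *Kcnb2*, a Kv2 pore (0.676 to 0.826 against 0.855 to 0.963 TPM), on the higher side.

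**Figure D2:**
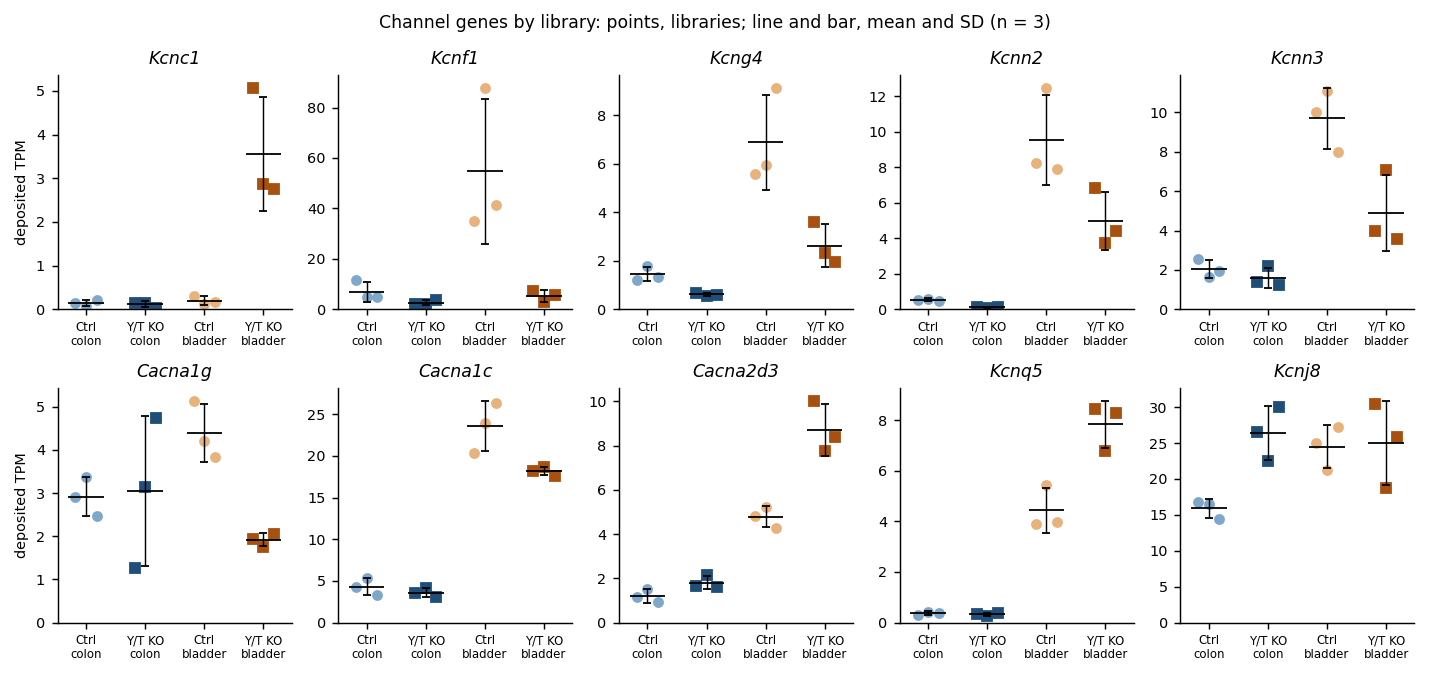
Deposited TPM of 10 members in each of the 12 libraries (points), with the mean and SD of the 3 libraries of each group (line and bar). *Kcnf1*, *Kcng4*, and *Kcnn2* are lower in Y/T KO in both tissues, *Cacna2d3* is higher in both, *Kcnc1* is above 2 TPM only in Y/T KO bladder, and *Kcnj8* separates the genotypes in colon alone.

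Certain members were high in 2 of the 3 Y/T KO bladder libraries. *Cacna1s*, the L-type pore of skeletal muscle, named after its values were seen, was at 2.06, 1.16, and 0.378 TPM for Ctrl bladder and at 0.0295, 21.2, and 21.04 TPM for Y/T KO bladder, so that Y/T KO 782 was the lowest library and 783 and 780 were the highest. *Kcnj11*, the KATP pore of pancreatic beta cells and skeletal muscle, was also far lower in Y/T KO 782 than in 783 and 780, at 0.177, 2.80, and 3.49 TPM, with 0.0648 to 0.163 TPM for Ctrl bladder. *Kcna7*, a muscle Kv1 pore chosen after its values were seen, was at 0, 1.34, and 1.13 TPM for Y/T KO and at 0.320, 0, and 0 TPM for Ctrl. The 8 skeletal muscle markers summed to 6151 and 6806 TPM for Y/T KO 783 and 780, to 1266 TPM for Y/T KO 782, and to 1995, 1503, and 1365 TPM for Ctrl 784, 785, and 788, and *Myh4* was listed at 0 in Ctrl 785 and 788 and in Y/T KO 782. *Kcnc1* was highest, at 5.07 TPM, in Y/T KO 782, and the part of skeletal muscle in its difference was not tested. Without Y/T KO 783 and 780, an alternative chosen after the data were seen, the fold change of *Kcnc1* was 4.13 and that of *Kcnf1* -2.83, and 0 of 70 members were called, with the lone Y/T KO library assumed to vary like the Ctrl libraries.

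**Figure D3:**
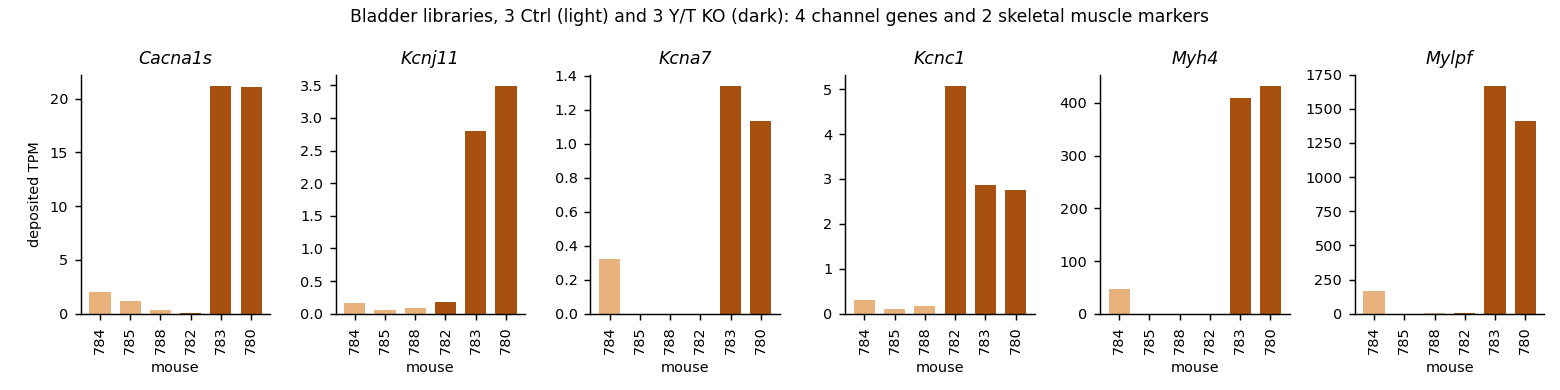
Deposited TPM in the 6 bladder libraries, named by mouse, for 4 members and for the skeletal muscle markers *Myh4* and *Mylpf*; light bars are Ctrl and dark bars Y/T KO. *Cacna1s*, *Kcnj11*, and *Kcna7* are high where *Myh4* and *Mylpf* are high (mice 783 and 780), whereas *Kcnc1* is highest in mouse 782.

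In colon, 0 of 54 members tested were called, against 0.137% of all 17500 genes tested with limma. At an unadjusted p of 0.05 there were 7 members (13.0%), 4 higher and 3 lower, where all genes gave 9.73%. The median log2 fold change was 0.03 over the members and 0.01 over all genes. The Y/T KO libraries lay below the Ctrl libraries for 5 members (9.26%, all genes 8.28%) and above them for 6 (11.1%, all genes 7.52%). The 6 include *Kcnh1*, which was tested through Y/T KO alone and had to lie apart. The lowest adjusted p of a member was 0.241.

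That member was *Kcnj8*, the KATP pore of vascular and visceral smooth muscle, at 16.7, 16.5, and 14.4 TPM for Ctrl colon and 26.6, 22.6, and 30.0 TPM for Y/T KO colon (log2 fold change 0.76 ± 0.17). *Kcnj10*, an inward rectifier known from glia, was at 1.21, 1.64, and 1.39 TPM for Ctrl and 1.71, 3.10, and 2.85 TPM for Y/T KO (0.81 ± 0.30, adjusted p = 0.485). Both inward rectifiers were higher in each Y/T KO library, and the 15 inward rectifiers summed to 20.3 to 24.1 TPM for Ctrl and 30.0 to 37.1 TPM for Y/T KO colon, of which *Kcnj8* made the larger part. Glial markers (6) summed to 12.8 to 16.5 TPM for Ctrl and 15.5 to 20.0 TPM for Y/T KO colon, with 0 of 5 tested called but *Gfap* (2.52 to 3.18 against 4.61 to 6.90 TPM) and *S100b* (2.58 to 3.07 against 3.18 to 5.12 TPM) higher in each Y/T KO library, and endothelial markers (4) to 55.3 to 76.8 and 52.7 to 72.1 TPM. Their part in these differences was not tested.

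A further 3 members were higher in each Y/T KO colon library. *Kcnh1*, an EAG pore, was at 0.232, 0.347, and 0.199 TPM for Ctrl and 0.787, 0.631, and 0.799 TPM for Y/T KO (1.27 ± 0.41, adjusted p = 0.435). It was tested only because the Y/T KO libraries exceeded 0.5 TPM, so the genotypes had to differ. *Kcns1*, a silent Kv subunit, was at 0.513, 0.764, and 0.957 TPM against 1.13, 1.88, and 1.57 TPM (0.99 ± 0.36, adjusted p = 0.476), and *Cacna2d3* at 1.15, 1.53, and 0.921 TPM against 1.66, 2.13, and 1.59 TPM (0.59 ± 0.29, adjusted p = 0.559). The genotypes did not overlap for these 3 members, and none passed the adjusted threshold.

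On the lower side, *Kcnf1* was at 11.6, 4.69, and 4.78 TPM for Ctrl colon and 2.06, 2.05, and 3.69 TPM for Y/T KO colon (-1.28 ± 0.43, adjusted p = 0.445), and *Kcng4* at 1.23, 1.80, and 1.34 TPM against 0.685, 0.547, and 0.594 TPM (-1.09 ± 0.31, adjusted p = 0.373). *Cacna1a*, the P/Q-type pore of nerve terminals, was at 2.57, 3.39, and 2.96 TPM for Ctrl and 1.80, 1.09, and 2.19 TPM for Y/T KO (-0.78 ± 0.31, adjusted p = 0.492). *Kcna2*, a Kv1 pore of axons, was at 1.11, 1.90, and 1.18 TPM against 1.10, 0.889, and 0.910 TPM (-0.42 ± 0.31, adjusted p = 0.677). Each of these 4 was lower in every Y/T KO library. *Kcnn2* also was lower in every Y/T KO colon library, at 0.542, 0.601, and 0.444 TPM for Ctrl and 0.123, 0.0521, and 0.120 TPM for Y/T KO, and it was below the limit for testing in colon. The 12 neuronal markers summed to 173 to 215 TPM for Ctrl and 160 to 250 TPM for Y/T KO colon, of which *Vip* made the largest part, and 8 of 11 tested were negative, 2 of them without overlap, with a median log2 fold change of -0.54 and 0 called. The pancreatic acinar markers of Ctrl colon (7.25 to 134 TPM) were at 0.344 to 1.08 TPM for Y/T KO colon. The part of either list in these differences was not tested.

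The members with the best-known role in smooth muscle contraction overlapped between genotypes in colon. *Cacna1c* was at 4.28, 5.35, and 3.32 TPM for Ctrl and 3.56, 4.11, and 3.10 TPM for Y/T KO (-0.20 ± 0.23, adjusted p = 0.786), *Kcnma1* at 4.47, 12.8, and 6.35 TPM against 9.65, 11.9, and 8.29 TPM (0.50 ± 0.34, adjusted p = 0.659), and *Kcnmb1* at 11.1, 14.1, and 11.5 TPM against 12, 11.2, and 9.11 TPM (-0.15 ± 0.17, adjusted p = 0.797). *Kcnma1* had a single Ctrl library, from mouse 786, above all others. *Cacnb2* (2.42 to 3.22 against 2.48 to 2.64 TPM), *Cacnb3* (25.8 to 38.8 against 27.9 to 34.0 TPM), *Cacna2d1* (9.02 to 12.4 against 9.33 to 14.8 TPM), *Cacna1d* (1.35 to 4.10 against 1.47 to 2.28 TPM), *Cacna1g* (2.47 to 3.38 against 1.26 to 4.73 TPM), and *Cacna1h* (4.40 to 7.02 against 5.16 to 7.20 TPM) overlapped as well. So did *Kcnh2* (3.11 to 5.78 against 3.71 to 8.14 TPM), *Kcnk3* (3.65 to 4.56 against 4.47 to 6.18 TPM), *Kcnn3* (1.65 to 2.56 against 1.21 to 2.18 TPM), *Kcnd3* (3.34 to 4.54 against 4.23 to 5.01 TPM), and *Kcnk1* (69.3 to 93.7 against 76.0 to 83.8 TPM). Low in all 6 colon libraries, and overlapping, were *Kcna5* (0.210 to 0.813 against 0.367 to 0.421 TPM), *Kcnq5* (0.308 to 0.436 against 0.267 to 0.372 TPM), *Kcnj11* (0.213 to 0.277 against 0.167 to 0.383 TPM), *Kcnk2* (0.368 to 0.585 against 0.434 to 0.673 TPM), and *Kcnt1* (0.0629 to 0.197 against 0.0584 to 0.212 TPM). The epithelial *Kcne3* (185 to 259 against 244 to 292 TPM), *Kcnq1* (40.5 to 47.1 against 44.3 to 58.0 TPM), *Kcnk5* (49.4 to 55.0 against 27.9 to 52.8 TPM), and *Kcnn4* (23.3 to 34.7 against 30.0 to 42.1 TPM) overlapped too.

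**Figure D4:**
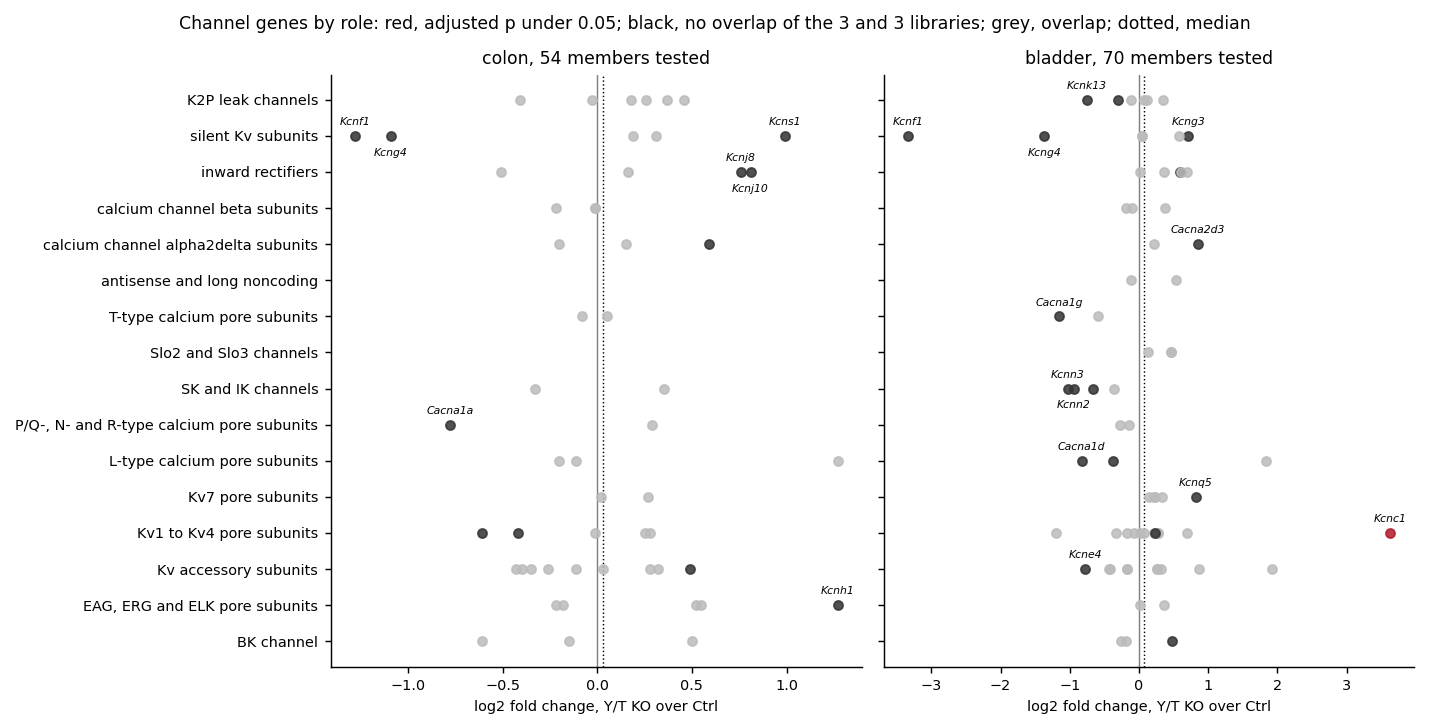
Log2 fold change, Y/T KO over Ctrl, of each member tested, by role, in colon (54 members) and bladder (70 members); the horizontal scales differ. *Kcnc1* in bladder is the member in red (called), *Kcnf1* and *Kcng4* are the lowest silent Kv subunits in both tissues, and the dotted medians lie at 0.03 and 0.07.

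Colon and bladder were set side by side for the members without overlap in both. *Kcnf1*, *Kcng4*, and *Kcnn2* (below the limit for testing in colon) were lower and *Cacna2d3* was higher in every Y/T KO library of both tissues, and 0 members had no overlap in opposite directions. Of the 45 members tested in both tissues, 17 had a positive and 14 a negative fold change in each. The shares of all genes with these patterns are not given here, so these counts show nothing particular to the members. Whether the knockout acted differently in colon and bladder was tested as an interaction over all 12 libraries with limma, in which 0 of 45 members were called, against 0.0491% of all genes, and 6 members (13.3%) had an unadjusted p under 0.05, against 12.6% of all genes. *Kcnj8* had the lowest adjusted p (colon minus bladder effect 0.75 ± 0.24, adjusted p = 0.270), followed by *Kcnn4* (1.01 ± 0.33, adjusted p = 0.272) and *Kcnf1* (2.05 ± 0.68, adjusted p = 0.280). The interaction was not past the threshold for any member, which does not show that the tissues responded alike.

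**Figure D5:**
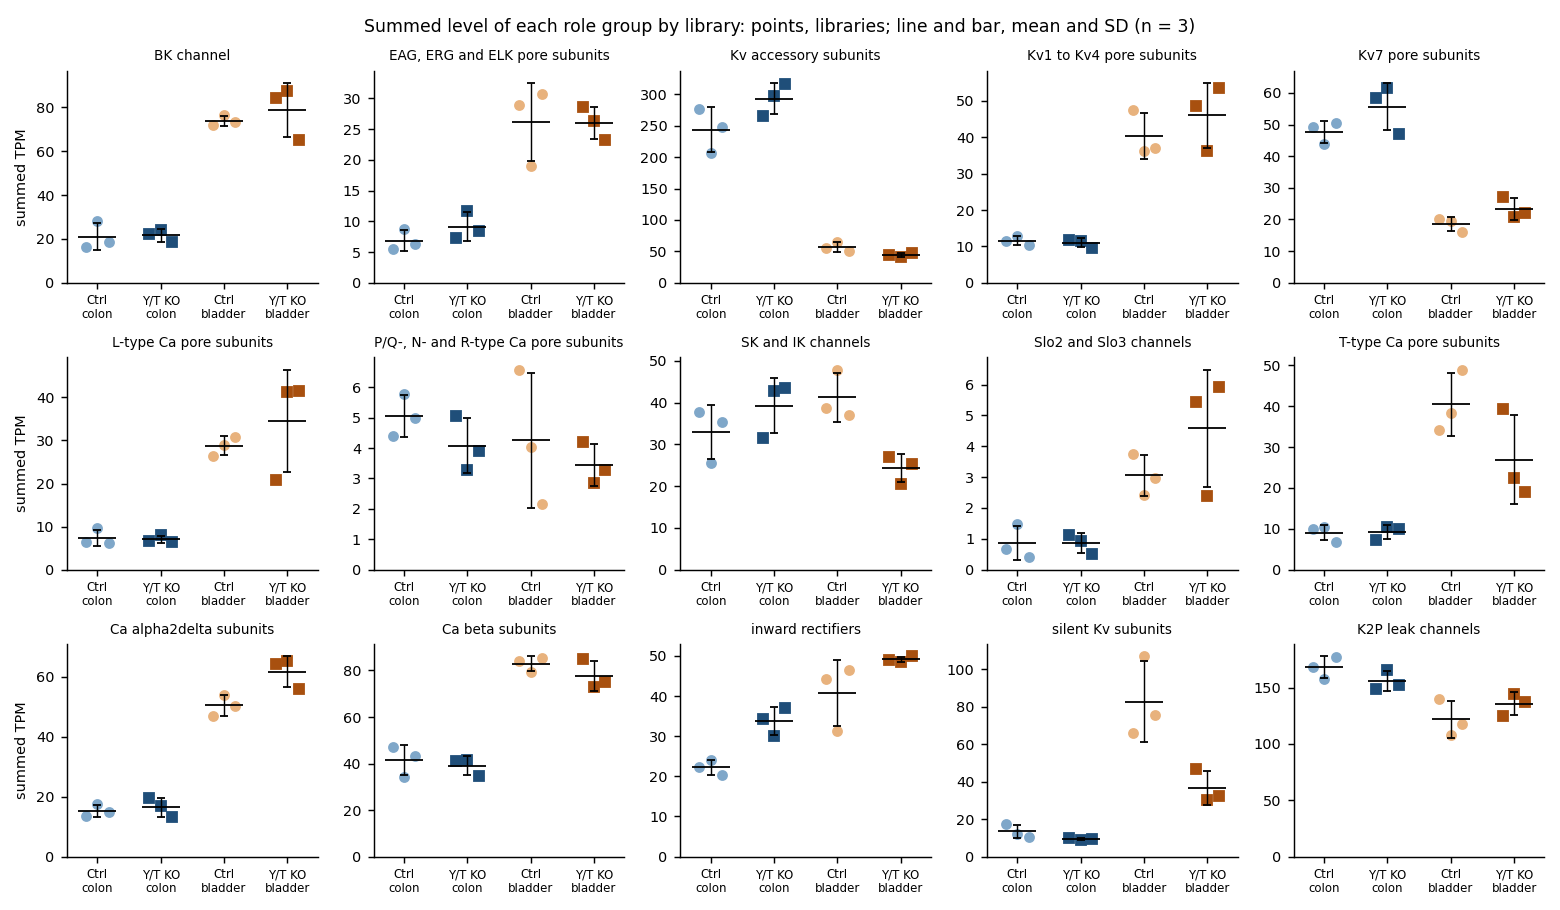
Summed deposited TPM of the members of each role in each library (points), with the mean and SD of the 3 libraries of each group (line and bar). Summed silent Kv subunits are lower in Y/T KO bladder (30.2 to 46.9 TPM) than in Ctrl bladder, through *Kcnf1*. SK and IK channels are lower there too (20.6 to 26.97 TPM). Summed inward rectifiers are higher in Y/T KO colon (30.0 to 37.1 TPM) than in Ctrl colon. They are also higher in Y/T KO bladder (48.5 to 49.9 against 31.3 to 46.5 TPM). That bladder sum holds *Kcnj11*, at 0.177, 2.80, and 3.49 TPM in Y/T KO 782, 783, and 780, and without it the genotypes overlap. Also without overlap in bladder, Kv accessory subunits are lower (40.4 to 46.9 against 51.0 to 65.7 TPM). Kv7 pores (20.75 to 27.25 against 15.9 to 20.2 TPM) and alpha2delta subunits (55.8 to 65.1 against 46.9 to 53.9 TPM) are higher there. In colon, silent Kv subunits are lower (9.08 to 9.77 against 10.6 to 17.4 TPM), again through *Kcnf1*. Without it the other 9 overlap there (5.67 to 7.71 TPM for Y/T KO and 5.78 to 7.49 TPM for Ctrl). Shares over other sets of genes are not given here, so these separations of sums show nothing particular to the roles.

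Genes that regulate or accompany these channels were counted from a list of 39 partners. Of these, 22 were tested in colon and 25 in bladder, with 0 called in either by limma, and 2 (9.09%, all genes 9.73%) and 7 (28.0%, all genes 14.8%) had an unadjusted p under 0.05. *Gem* and *Rrad* encode small GTPases of the RGK family that inhibit voltage-gated calcium channels through the beta subunit. *Gem* was at 10.03, 9.28, and 9.88 TPM for Ctrl colon and 20.0, 17.9, and 23.6 TPM for Y/T KO colon (1.09 ± 0.18, adjusted p = 0.112), and at 23.5, 30.6, and 28.2 TPM against 34.6, 42.4, and 81.5 TPM in bladder (0.85 ± 0.32, adjusted p = 0.298). *Rrad* was at 4.11, 3.27, and 4.77 TPM for Ctrl and 8.73, 16.4, and 15.2 TPM for Y/T KO colon (1.71 ± 0.30, adjusted p = 0.134). Both were higher in each Y/T KO library of colon without passing the adjusted threshold, although *Rrad* passed it with all 12 libraries in a single fit (adjusted p = 0.0306), with the replicate block (0.0303), and without Y/T KO 759 (0.0419). *Dpp6*, a partner of Kv4 channels, was at 2.59 to 6.55 TPM for Ctrl and 7.90 to 9.53 TPM for Y/T KO bladder (1.19 ± 0.38, adjusted p = 0.239), and *Rem1*, another RGK inhibitor, at 7.75 to 10.4 against 5.95 to 7.20 TPM (-0.55 ± 0.18, adjusted p = 0.252). *Ano1*, a calcium-activated chloride channel of pacemaker cells, was at 93.4 to 98.1 against 78.1 to 83.3 TPM in bladder (-0.24 ± 0.09, adjusted p = 0.281), where the pacemaker cell markers *Kit* and *Etv1* summed to 15.7 to 23.1 TPM for Ctrl and 28.4 to 32.6 TPM for Y/T KO, and in colon *Trpc1*, a cation channel, was at 1.51 to 2.05 against 1.01 to 1.29 TPM (-0.59 ± 0.27, adjusted p = 0.540) and *Hcn2*, a pacemaker channel, at 3.08 to 3.40 against 1.77 to 3.05 TPM (-0.49 ± 0.27, adjusted p = 0.609).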

How the data were processed

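RNA from 12 libraries of distal colon and urinary bladder (3 Ctrl and 3 Y/T KO each) was sequenced by the authors as stranded poly(A) libraries on a NextSeq 500, aligned to GRCm38 with HISAT2, and estimated with StringTie (versions not given in the sources used here). The deposited TPM values give each gene's length-corrected share of transcripts, the deposited FPKM values are scaled by length and library size, and the deposited coverage is the mean read depth over a gene and was used with FPKM to find the aligned bases. The counts behind the study's own tests were not used here. TPM was summed by gene ID, divided by median-of-ratios size factors, and fitted as log2(TPM + 0.1) over all genes with limma 3.58.1 in R 4.3.3 (eBayes with trend and robust, Benjamini-Hochberg), with genes kept if 3 or more of 6 libraries held 0.5 TPM or more. Values by library are TPM as deposited. An exact permutation test of 3 against 3 cannot go below p = 0.10. Counting error of single values was not estimated.

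Members and lists were chosen with earlier results of these data known. Members were named when called (in the control tissues, the 5 largest in each direction), when among the 5 largest without overlap in each tissue and direction, when highest in their role, or when textbook smooth muscle members. Some members that met this rule are not reported here. Partners were named with at most 2 a direction. Mouse numbers in the labels pair the tissues of 3 mice, and their deviations from group means correlated at -0.016, 0.089, and 0.059. In simulated libraries with 200 changed genes, the fit recovered 31% (colon) and 43.5% (bladder) of changes of 1 log2 unit, and 86% and 75.5% of those of 2 units. Alternatives are given at the end. Python 3.11.15 with pandas 2.3.3 gave the tables, and matplotlib 3.10.9 the plots.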

Additional observations from a re-analysis of the deposited data

How the results depend on the processing

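The 0 members called in colon and in the interaction, and the 55 called between control tissues (50 to 54 with a library left out), kept within 1.5 times of their counts under every alternative run. In bladder the count of 1 became 2 at an adjusted p of 0.1, with all 12 libraries in a single fit, and with the mouse as a replicate block (*Kcnf1* joined), ran from 0 to 1 with a library left out, and was 0 without Y/T KO 783 and 780. Between control tissues the single limma fit of all 12 libraries added *Cacnb3* (adjusted p = 0.0401), *Kcna5* (0.0267), and *Kcnab3* (0.0439), for 58 called. The block on top of that fit gave the same 3 (0.0395, 0.0257, and 0.0423), also for 58 called. In colon the partner *Rrad* was added with and without the block. Beyond these and *Kcnf1* in bladder, neither fit changed a member's call. The median over members in bladder moved by more than the spread between libraries, to -0.066 to 0.15, with a library left out; in colon it ran from -0.01 to 0.09. *Kcnmb1* in bladder turned to 0.12 without Y/T KO 783 and 780. Of 33 further results for members that met the naming rule in a tissue, with no fold change in the text, 22 changed sign under at least 1 alternative. The cause of these changes was not tested. TPM carries no read counts, so the precision of low members such as *Kcnc1* and *Kcnh1* rests on the spread of 3 libraries alone.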
